A study of Mus musculus with 6 samples.

Results

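The genes described here are the ABC (ATP-binding cassette) genes other than the ABCC subfamily and ABCG2. They were taken as every protein-coding gene whose symbol starts with ABC followed by A, B, D, E, F or G and a number, with ABCG2 left out. This gave 33 genes of 58735 in the table, in 6 subfamilies with 12 ABCA, 9 ABCB, 4 ABCD, 1 ABCE, 3 ABCF and 4 ABCG genes. The rule used no measured value. It left out 12 ABC-named pseudogenes and antisense genes of these subfamilies, and also TAP1 and TAP2, which are ABCB genes under other symbols and are given with the peptide-loading genes.

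RNA-Seq was performed on 22Rv1, an established line of human prostate cancer, with 3 vehicle-treated parental libraries and 3 libraries of the BL-B01D1–resistant subline, 22Rv1 BL-B01D1_R. BL-B01D1 is a bispecific antibody-drug conjugate against EGFR and HER3 with a topoisomerase I inhibitor as its payload. The resistant cells are a single subline, derived from 22Rv1 under the conjugate itself, so the spread between libraries covers neither a repeated selection nor other parental stocks. The labels do not say whether the libraries of a group came from separate cultures, so p-values measure only the spread between these libraries, which may be technical. The study asked which genes differ between the resistant and the parental cells, and it drew attention to ABC efflux pumps.

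ABC proteins bind and hydrolyze ATP through paired nucleotide-binding domains. Members of subfamilies A, B, D and G use this energy to move lipids, sterols, peptides, heme, bile constituents or drugs across membranes, either as complete transporters in a single chain or as subunits that dimerize. ABCE and ABCF proteins lack membrane-spanning domains and act on ribosomes. ABCB1 (P-glycoprotein) is the best-known drug efflux pump of these subfamilies, and in prostate and other epithelia ABCA1 and ABCG1 are known for cholesterol efflux.

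Total counts per library ranged from 13821639 to 17251491, so 3 counts corresponded to 0.174 to 0.216 CPM (counts scaled to library size). Counts of libraries within a group differed by more than sampling noise (chi-square per degree of freedom 1.77 to 2.47), and all 6 libraries were kept as separate samples. The luminal markers FOLH1 and KRT8 were abundant in both groups, at 655 and 514 CPM in parental and 737 and 538 CPM in resistant cells. KLK3 was at 2.67 and 4.96 CPM. Of the 9 luminal markers, 6 rose, 2 fell and 1 did not pass at an edgeR FDR of less than 0.05. Over all tested genes, 17.1% rose and 18.4% fell. Of the endothelial and immune markers, none was above 0.436 CPM on average in either group, and CDH5 and CD3E had no count. Single markers of other tissues were present and lower in resistant cells, with ALB falling from 310 to 90.6 CPM and LUM from 96.0 to 28.8 CPM, but their lists did not follow as a whole. Of the other fibroblast markers, COL1A1 fell (log2 fold change −0.28, edgeR FDR 0.0348), DCN did not pass (edgeR FDR 0.286) and COL1A2 had at most 2 counts in a library. In bulk RNA of a cell line, fewer cells that express a gene and less of its RNA per cell cannot be told apart.

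A gene was tested where about 10 counts or more were reached in at least 3 libraries, which kept 17142 genes. Differences were tested with edgeR's quasi-likelihood test, with the false discovery rate (FDR) taken over all tested genes. A gene was said to rise or fall at an FDR of less than 0.05, and was called when the absolute log2 fold change (resistant over parental) was also greater than 1. Of the 33 genes, 22 were tested and 11 were not. ABCA10 passed the filter only through its resistant libraries and ABCB11 only through its parental libraries, so a difference was built in for these, and the counts over the tested genes describe them without support from the filter.

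Most of the tested genes differed little between the lines. Among the 22 tested genes, 8 rose (36.4%) and 4 fell (18.2%), against 17.1% and 18.4% of all genes tested, and 10 did not pass. ABCA10 was called higher and ABCA12 and ABCB11 were called lower, where 2.53% and 2.84% of all tested genes were called higher and lower. Together these were 3 of 22 genes, and 5.37% of all tested genes were called in either direction. The median log2 fold change was 0.066 over the tested members and 0.0038 over all tested genes, and the median absolute log2 fold change was 0.13 and 0.17, respectively. The lowest resistant library exceeded the highest parental one in 7 of the 22 genes, and the reverse held in 4, against 22.1% and 22.8% of all genes tested. Deeper genes pass more easily. Among the 16 members with a mean of at least 100 counts, 50.0% passed in either direction, against 42.8% of 11467 genes at that depth. Of these members 37.5% rose and 12.5% fell, against 20.6% and 22.2% of the genes at that depth. Without resistant library 1, 4 members rose in place of 8 and 3 fell in place of 4, with ABCA3, ABCB4, ABCD3 and ABCG1 no longer among those that rose.

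**Figure D1:**
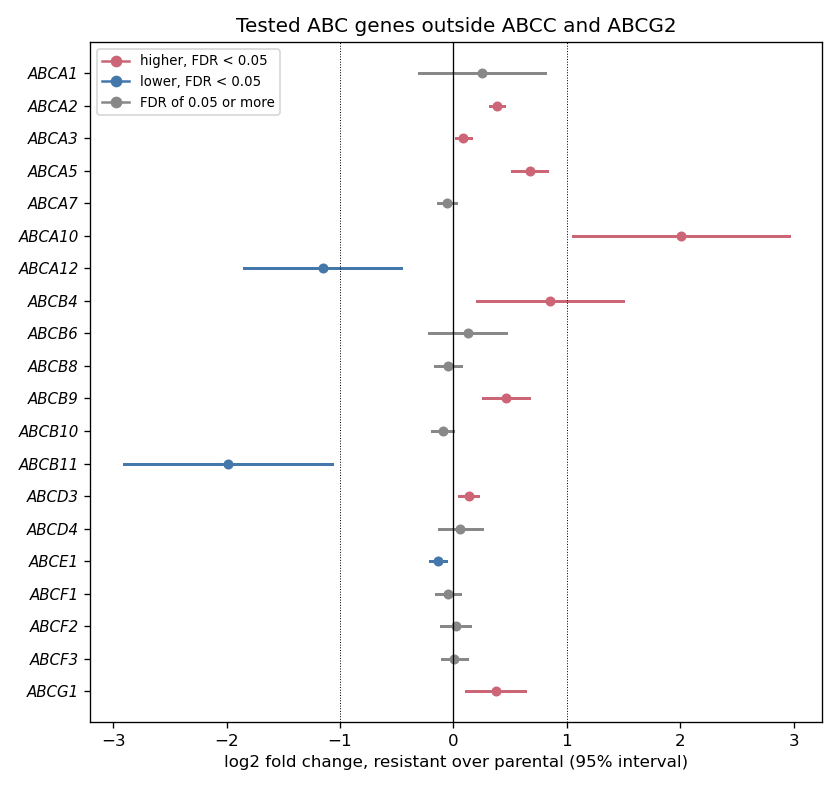
Log2 fold change of 20 of the 22 tested genes, resistant over parental, with its 95% interval from edgeR's fit. Dotted lines mark an absolute log2 fold change of 1. ABCA10, ABCA12 and ABCB11 lie beyond them with wide intervals, and the other 17 points lie between them.

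Levels were compared between genes as FPKM (CPM per kilobase of the listed gene length). They ran from ABCE1, at 32.9 ± 1.38 FPKM (SD, n = 3) in parental cells, down to ABCA8, which had no count in any library. ABCE1 was followed by ABCA3 at 26.4 FPKM, ABCB10 at 21.1 and ABCA2 at 19.5, each apart from the next in every parental library. In resistant cells ABCA2 rose to 25.4 FPKM, above ABCB10 on average at 19.8. Among the genes above 5 FPKM, ABCD3 and ABCF1, and ABCF1 and ABCA7, were neighbors in this order whose parental libraries overlapped. From ABCA12 to ABCD2 each gene overlapped the next in parental libraries. A gap separated ABCB8, at 6.84 FPKM, from ABCD4, at 1.79 FPKM, and from ABCA12 downwards every gene was under 0.2 FPKM in parental cells on average. All 3 called genes were in this lowest range.

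**Figure D2:**
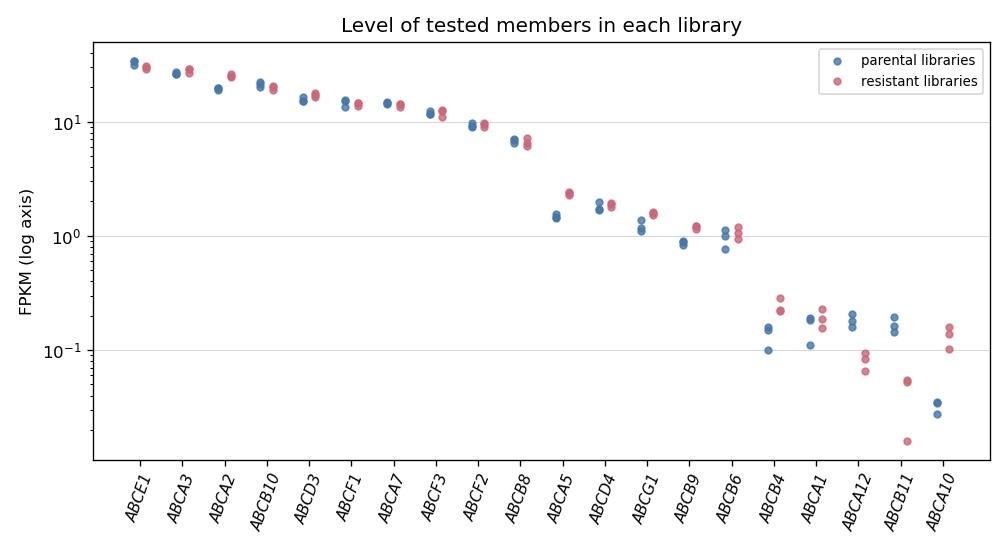
FPKM of 20 of the 22 tested genes in each of the 6 libraries, on a log axis and ordered by the mean over all libraries. From ABCE1 to ABCB8 the levels are above 5 FPKM and the groups lie close together, whereas ABCA12, ABCB11 and ABCA10 at the right are apart between the groups at levels under 0.25 FPKM.

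The ABCA subfamily holds complete transporters of lipids. ABCA2, a lysosomal and endosomal lipid transporter best known from the nervous system, had 219, 225 and 228 CPM in parental libraries 1 to 3 and 302, 285 and 291 CPM in resistant libraries 1 to 3. The groups did not overlap, and the log2 fold change was 0.39 (SE 0.031, edgeR FDR 1.56e-13), an increase of 30.7%. ABCA2 (ENSG00000107331) spans 137007227 to 137028922 of chromosome 9 (hg38, reverse strand).

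ABCA5, whose product is a lysosomal transporter linked to cholesterol handling, had 18.7, 19.4 and 20.4 CPM in parental and 31.3, 31.9 and 29.95 CPM in resistant libraries. Its log2 fold change of 0.67 (SE 0.076, edgeR FDR 1.46e-09) amounted to an increase of 59.2%, the largest of the members with a mean of at least 100 counts. ABCA2 and ABCA5 stayed past the FDR threshold whichever of the 6 libraries was omitted.

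ABCA3, the phospholipid transporter of the lamellar bodies of alveolar type 2 cells, had 202, 203 and 213 CPM in parental and 224, 208 and 224 CPM in resistant libraries. The groups overlapped, and the log2 fold change was 0.088 (SE 0.034, edgeR FDR 0.0415). It no longer passed on omission of any of 4 of the 6 libraries, with FDR up to 0.175. ABCA3 also did not pass with DESeq2, limma-trend or limma on log2(FPKM + 1). The same held with libraries scaled by their totals alone, and without the filter on low counts. The alveolar markers SFTPB and SFTPC had at most 0.143 CPM on average in either group.

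ABCA7, a phospholipid transporter, did not pass, at 121 ± 2.31 and 117 ± 4.54 CPM (SD, n = 3) in parental and resistant cells. The 95% interval of its log2 fold change (−0.053) ran from −0.13 to 0.026. ABCA1, the cholesterol and phospholipid exporter that loads high-density lipoprotein, had 37, 21 and 29 counts in parental and 43, 31 and 29 counts in resistant libraries. At this depth its log2 fold change of 0.25 had an interval from −0.30 to 0.80, so a change was not detectable.

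ABCA12, the transporter of epidermal lipids in keratinocytes, was called lower. It had 29, 25 and 27 counts in parental and 13, 13 and 10 counts in resistant libraries, or 1.71 ± 0.23 and 0.761 ± 0.14 CPM (SD, n = 3). Every resistant library was under every parental one. The log2 fold change was −1.15 (SE 0.34, edgeR FDR 0.00708), with an interval from −1.85 to −0.46 that reaches well inside the fold threshold. The keratinocyte marker KRT1 had no count in any library. KRT10 was at 10.8 CPM in parental and 12.2 CPM in resistant cells, without passing the test.

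ABCA10 belongs to a run of related ABCA genes next to each other on the reverse strand of chromosome 17, in the order ABCA8, ABCA9, ABCA6, ABCA10 and ABCA5, from 68867292 to 69327244. ABCA10 was called higher, from 4, 5 and 4 counts in parental to 22, 17 and 14 counts in resistant libraries. In CPM this was 0.232, 0.298 and 0.288 against 1.33, 1.16 and 0.863, with no overlap. The log2 fold change was 2.01 (SE 0.47, edgeR FDR 0.00067), and the interval from 1.06 to 2.96 shows how little these counts fix its size. ABCA10 reached the test only through its resistant libraries, so a difference was built in and the FDR is no independent support.

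The other genes of the run were at or near 0 in parental cells, apart from ABCA5. ABCA6 had 0, 1 and 0 counts in parental and 2, 2 and 4 counts in resistant libraries, a ratio of summed counts of 7.98 with an exact 95% counting interval from 1.07 to 354. ABCA9 had no count in parental libraries and 3, 4 and 0 counts in resistant libraries, and ABCA8 had 0 counts throughout, which allows up to 3 counts in each library. Summed over ABCA6, ABCA8 and ABCA9, parental libraries had 0, 1 and 0 counts and resistant libraries 5, 6 and 4. None of these was tested under the filter. Without the filter, edgeR FDR was 0.296 for ABCA6 and 0.12 for ABCA9.

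The annotated spans of ABCA10 and ABCA5 overlap by 536 bases on the same strand, so reads there could not be given to either gene with certainty. ABCA5 had 323, 326 and 283 counts in parental and 518, 469 and 486 counts in resistant libraries. What part of the ABCA10 difference rests on reads from the overlap was not tested. Beyond the ends of the run, FAM20A (a pseudokinase of the secretory pathway) had 3, 0 and 5 counts in parental and 11, 17 and 16 counts in resistant libraries. It passed the filter only through its resistant libraries, so its difference was built in as for ABCA10. MAP2K6 (a kinase that activates p38) rose by 0.21 on the log2 scale (edgeR FDR 0.037). Of the 3 nearest tested protein-coding genes on each side of ABCA10, 4 rose, 1 fell and 1 did not pass. Over all tested genes, 17.1% rose and 18.4% fell. Those that rose include FAM20A and ABCA5, itself a member whose span overlaps that of ABCA10. Apart from ABCA5, these neighbors lie between 169852 (MAP2K6) and 2876174 (SOX9) bases from ABCA10.

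**Figure D3:**
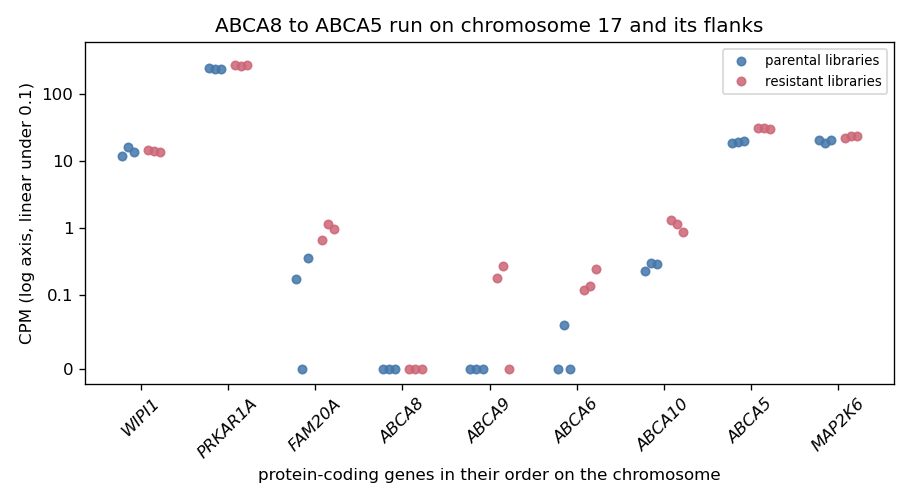
CPM in each library of the ABCA8 to ABCA5 run and of flanking protein-coding genes, in their order on chromosome 17, on a log axis that is linear under 0.1. ABCA10 and ABCA5 are higher in all resistant libraries, ABCA9 is at 0 in all parental libraries and ABCA6 in 2 of 3, and ABCA8 is at 0 in all 6.

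The ABCB subfamily holds the drug and bile pumps and a set of mitochondrial and lysosomal transporters. ABCB1, the multidrug efflux pump, had 4, 3 and 7 counts in parental and 3, 4 and 4 counts in resistant libraries and was not tested. The ratio of summed counts was 0.783, with an exact 95% counting interval from 0.322 to 1.86. This interval covers counting error only and leaves room for changes in both directions. RUNDC3B, with 169 to 229 counts per library, overlaps ABCB1 by 85776 bases on the other strand.

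ABCB4 adjoins ABCB1 on chromosome 7 and encodes the phosphatidylcholine floppase of the bile canaliculus. It had 21, 13 and 16 counts in parental and 29, 25 and 36 counts in resistant libraries, and the groups did not overlap. Its log2 fold change was 0.85 (SE 0.32, edgeR FDR 0.0328). It passed on omission of parental library 1 or 3 and lost significance without parental library 2 (log2 fold change 0.67, edgeR FDR 0.143) and without resistant library 1, 2 or 3. ABCB4 also did not pass with DESeq2 or limma on log2(FPKM + 1).

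ABCB11, the bile salt export pump of hepatocytes, was called lower. Its counts were 19, 21 and 21 in parental and 7, 6 and 2 in resistant libraries, or 1.29 ± 0.21 and 0.318 ± 0.17 CPM (SD, n = 3). Every resistant library was under every parental one, and the log2 fold change was −1.99 (SE 0.45, edgeR FDR 0.000497). ABCB11 reached the test only through its parental libraries, so a difference was built in and the FDR is no independent support. Of the hepatocyte markers, ALB fell with a log2 fold change of −1.77 (edgeR FDR 6.78e-35), whereas APOA2 was near 0 and TTR had 4, 3 and 1 counts in parental and 6, 4 and 5 counts in resistant libraries. The summed level of the 3 markers, 89.5 to 93.7 FPKM in parental and 26.2 to 27.5 FPKM in resistant libraries, was almost entirely that of ALB, at 89.2 to 93.6 and 26.1 to 27.3 FPKM. The part of hepatocyte-type expression in the ABCB11 result was not tested.

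Among the intracellular ABCB genes, ABCB9 rose, and ABCB6, ABCB8 and ABCB10 did not pass. ABCB9, a lysosomal peptide transporter related to TAP, had 12.0, 11.7 and 11.0 CPM in parental and 16.2, 15.2 and 16.3 CPM in resistant libraries, without overlap. The log2 fold change was 0.46 (SE 0.10, edgeR FDR 0.000286) and stayed between 0.43 and 0.49 whichever library was omitted. The span of ABCB9 overlaps OGFOD2 and ARL6IP4 on the other strand, each with at most 29 counts in any library.

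ABCB8, part of a mitochondrial potassium channel complex, had a log2 fold change of −0.047 with an interval from −0.16 to 0.065, and ABCB10, an inner-membrane transporter needed for heme synthesis, had −0.094 with an interval from −0.19 to −0.00050. The last gave an edgeR FDR of 0.113, and 0.0436 when parental library 3 was left out. ABCB6, a porphyrin transporter, had 102, 87 and 56 counts in parental and 92, 92 and 79 counts in resistant libraries, and its log2 fold change of 0.12 had an interval from −0.22 to 0.47. For ABCB8 and ABCB10 the intervals leave out changes above 0.19 in size on the log2 scale, whereas for ABCB6 they do not.

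The ABCD subfamily serves peroxisomes and lysosomes. ABCD3, the peroxisomal importer of branched-chain and dicarboxylic acyl-CoAs, rose slightly. It had 124, 116 and 115 CPM in parental and 135, 129 and 125 CPM in resistant libraries, with the lowest resistant library just above the highest parental one. The log2 fold change was 0.13 (SE 0.040, edgeR FDR 0.00742), and 0.11 (edgeR FDR 0.0706) without resistant library 1. ABCD4, a lysosomal protein needed for cobalamin release, had a log2 fold change of 0.062 with an interval from −0.13 to 0.25. ABCD2, a peroxisomal fatty acid importer, had between 2 and 3 counts in every library and was not tested.

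ABCE1, which splits ribosomes after termination, was the most abundant member per length and fell slightly. It had 211, 211 and 196 CPM in parental and 190, 183 and 191 CPM in resistant libraries, so all resistant libraries were under all parental ones. The log2 fold change was −0.13 (SE 0.035, edgeR FDR 0.00185), so that its level decreased by 8.91%, and it stayed between −0.17 and −0.11 whichever library was omitted. The span of ABCE1 overlaps OTUD4 by 18342 bases and ANAPC10 by 610 bases, both on the other strand. OTUD4 had 788 to 1112 counts and ANAPC10 87 to 218 counts per library, and a part of their reads in the ABCE1 value was not tested.

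None of the 3 ABCF genes passed, and their median absolute log2 fold change was 0.019. ABCF1, which binds the initiation factor eIF2, had a log2 fold change of −0.046 (interval −0.15 to 0.060). ABCF2 had 0.019 (−0.11 to 0.15) and ABCF3, a partner of the GCN pathway by its yeast relative, 0.0094 (−0.099 to 0.12), which became −0.0067 when libraries were scaled by their totals alone. With edgeR, 0 of the 3 had an unadjusted p of less than 0.05, and limma-voom and DESeq2 also gave 0 at an FDR of less than 0.05. Their libraries overlapped between the groups in all 3 genes.

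Of the ABCG genes other than ABCG2, ABCG1 alone had enough counts to be tested. ABCG1, which exports cholesterol to high-density lipoprotein, had 6.73, 8.396 and 7.13 CPM in parental and 9.89, 9.31 and 9.61 CPM in resistant libraries. The groups did not overlap, and the log2 fold change was 0.37 (SE 0.13, edgeR FDR 0.0208). It lost significance without parental library 1 (log2 fold change 0.30, edgeR FDR 0.103), parental library 3 or resistant library 1, and with DESeq2 (FDR 0.0688).

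ABCG5 and ABCG8, which form the sterol exporter of liver and intestine, are transcribed in opposite directions from the same region of chromosome 2, and their spans overlap by 6924 bases. ABCG5 had 7, 14 and 4 counts in parental and 5, 9 and 4 counts in resistant libraries, a ratio of 0.718 with an exact 95% counting interval from 0.369 to 1.37. ABCG8 had 10, 20 and 8 counts in parental and 3, 6 and 3 counts in resistant libraries, without overlap, and its ratio was 0.315 with an interval from 0.15 to 0.616. Neither passed the filter. Without the filter, edgeR gave ABCG8 a log2 fold change of −1.60 (FDR 0.0288). ABCG4, a sterol transporter of the brain, had 1, 1 and 3 counts in parental and 2, 5 and 2 counts in resistant libraries.

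The remaining untested genes had almost no counts. ABCA4, the retinal transporter, had 3 counts in 1 resistant library and 0 elsewhere, and ABCA13 and ABCB5 each had 1 count in 1 parental library. Altogether 9 of the 33 genes had at most 10 counts in every library. None of those with a count passed an FDR of 0.05 with edgeR when the filter was dropped.

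The FPKM sum of all 33 genes was 199 ± 1.48 (SD, n = 3) in parental and 204 ± 1.71 (SD, n = 3) in resistant libraries, a ratio of 1.02 without overlap between the groups. The ABCA sum was 61.2, 62.1 and 63.3 FPKM in parental and 71.9, 68.6 and 69.97 FPKM in resistant libraries, a ratio of 1.13 without overlap. ABCA2 alone went from 19.5 to 25.4 FPKM on average. This is most of the ABCA difference and more than the difference in the sum of all 33 genes. The ABCE sum, which is ABCE1 alone, had a ratio of 0.911 without overlap. The ABCG sum without ABCG2 was low and had a ratio of 1.20 with overlap, from 1.44 ± 0.243 to 1.73 ± 0.053 FPKM (SD, n = 3). The ABCB, ABCD and ABCF sums had ratios of 0.987, 1.01 and 0.992, with overlap. For comparison, ABCG2, the drug efflux pump left out by the rule, went from 0.817 ± 0.15 to 86.9 ± 0.98 FPKM (SD, n = 3). The 33 genes made up 91.8% of the summed FPKM of all 45 protein-coding ABC genes in parental and 62.1% in resistant cells, while their own sum changed by a ratio of 1.02.

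**Figure D4:**
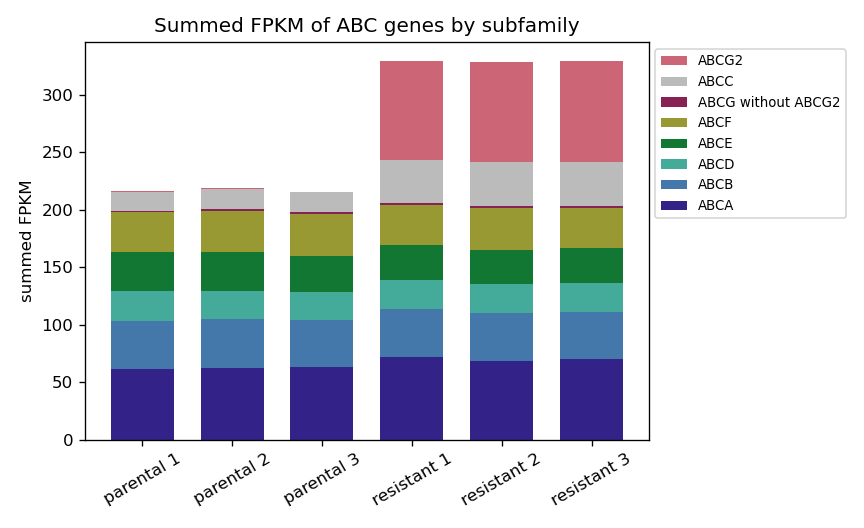
Summed FPKM of the protein-coding ABC genes in each library, stacked by subfamily, with ABCC and ABCG2 shown for comparison. The segments of ABCA to ABCG without ABCG2 reach 198 to 201 FPKM in parental and 203 to 206 FPKM in resistant libraries, and the taller resistant bars come from ABCG2 and ABCC.

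The called genes were compared with their neighbors on the chromosome. Of the 3 nearest tested protein-coding genes on each side of ABCA12 on chromosome 2, 5 fell and 1 did not pass, with a median log2 fold change of −0.53, where 18.4% of all tested genes fell. One of the 5, VWC2L (a secreted protein), had 29, 23 and 18 counts in parental and 3, 7 and 3 counts in resistant libraries and passed the filter only through its parental libraries, so its difference was built in. FN1 (fibronectin) and BARD1 (the partner of BRCA1) had log2 fold changes of −0.62 and −0.43. Around ABCB11, also on chromosome 2, 2 of 6 neighbors fell and 4 did not pass. LRP2, the endocytic receptor megalin, lies 95785 bases from ABCB11 and fell from 179, 141 and 138 counts to 75, 59 and 63 counts (log2 fold change −1.21, edgeR FDR 1.17e-08), whereas SPC25, 2127 bases away on the other side, had −0.12 (edgeR FDR 0.367).

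Genes that work with these transporters were taken from 8 lists of 94 symbols, of which 83 genes were tested. Among them 17 rose (20.5%) and 20 fell (24.1%), against 17.1% and 18.4% of all tested genes, 0 were called higher and 3 were called lower, and the median log2 fold change was 0.00. TAP1 and TAP2 form the transporter that supplies peptides for loading onto HLA class I molecules, and were listed with the other peptide-loading genes. In this list 2 of 7 genes rose and 2 fell. TAP2 fell from 25.8 ± 0.94 to 19.9 ± 0.37 CPM (SD, n = 3; log2 fold change −0.38, edgeR FDR 0.00013), while TAP1, at 48.5 and 45.1 CPM, did not pass (log2 fold change −0.11, edgeR FDR 0.18). TAPBP (tapasin) and CALR (calreticulin) rose, with log2 fold changes of 0.21 and 0.16.

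Sterol and phospholipid efflux through ABCA1 and ABCG1 is under control of the liver X receptors (LXR). Of 13 tested genes of this list, 5 rose (3 without resistant library 3) and 6 fell. NR1H3 (LXR-alpha) and MYLIP, which promotes degradation of the LDL receptor, rose with log2 fold changes of 0.42 (edgeR FDR 0.000726) and 0.35 (edgeR FDR 0.00197). PLTP, the phospholipid transfer protein, was called lower, from 18.3, 14.8 and 17.1 CPM to 6.03, 5.44 and 6.16 CPM (log2 fold change −1.51, edgeR FDR 1.06e-13).

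Among peroxisome genes, which go with the peroxisomal ABCD proteins, 4 of 15 tested genes rose and 4 fell, and 2 fell without parental library 3, without resistant library 2 or with DESeq2. ACSL1, which activates long-chain fatty acids, was called lower, from 133, 124 and 133 CPM to 54.2, 57.7 and 53.1 CPM (log2 fold change −1.24, edgeR FDR 6.23e-25). AMACR, the racemase of branched-chain fatty acid oxidation and a prostate cancer marker, rose with a log2 fold change of 0.63 (edgeR FDR 0.039). Its counts were low, at 40, 33 and 19 in parental and 51, 42 and 48 in resistant libraries. PEX16, a peroxisome assembly factor, rose with 0.32 (edgeR FDR 0.00053).

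Of 10 tested cobalamin genes, listed for the pathway of ABCD4, 2 rose (1 without parental library 3), 2 fell and 6 did not pass. Those that did not pass include LMBRD1 (log2 fold change 0.044, edgeR FDR 0.637) and MMACHC (−0.11, edgeR FDR 0.17). TCN2, the plasma carrier of cobalamin, was called lower, from 63.0 ± 3.50 to 16.7 ± 0.358 CPM (SD, n = 3; log2 fold change −1.91, edgeR FDR 2.49e-25). CUBN (cubilin) rose with a log2 fold change of 0.88, and MMAB, the cobalamin adenosyltransferase, fell with −0.29.

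In the heme and iron-sulfur list, which covers the pathways of the mitochondrial ABCB proteins, 4 of 17 genes rose and 2 fell, and 1 fell with DESeq2 or without parental library 1 or 3 or resistant library 1 or 2. SLC25A37 (mitoferrin) rose from 266 to 333 CPM, with a log2 fold change of 0.33 (edgeR FDR 1.52e-11). The heme enzyme UROD had a log2 fold change of 0.25. In the ribosome recycling and GCN list, which goes with ABCE1 and ABCF, 0 of 12 genes rose and 3 fell, with edgeR as with limma-voom and DESeq2, but 6 fell when libraries were scaled by their totals alone. In this list 5 of 12 had an unadjusted edgeR p of less than 0.05. Those that fell were EIF2S2 (eIF2-beta, log2 fold change −0.22), EIF3J (−0.22), which assists ABCE1, and HBS1L (−0.14), a partner of ribosome rescue.

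The list of bile acid and xenobiotic regulators had 3 tested genes of 9, of which FOXA1 fell (log2 fold change −0.17, edgeR FDR 4.32e-06) and 0 rose, or 1 without parental library 1. The list of keratinocyte and lung lipid secretion had 6 tested genes, of which 0 passed with edgeR, limma-voom or DESeq2 and 1 had an unadjusted edgeR p of less than 0.05. Without parental library 2, 1 of them rose.

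**Figure D5:**
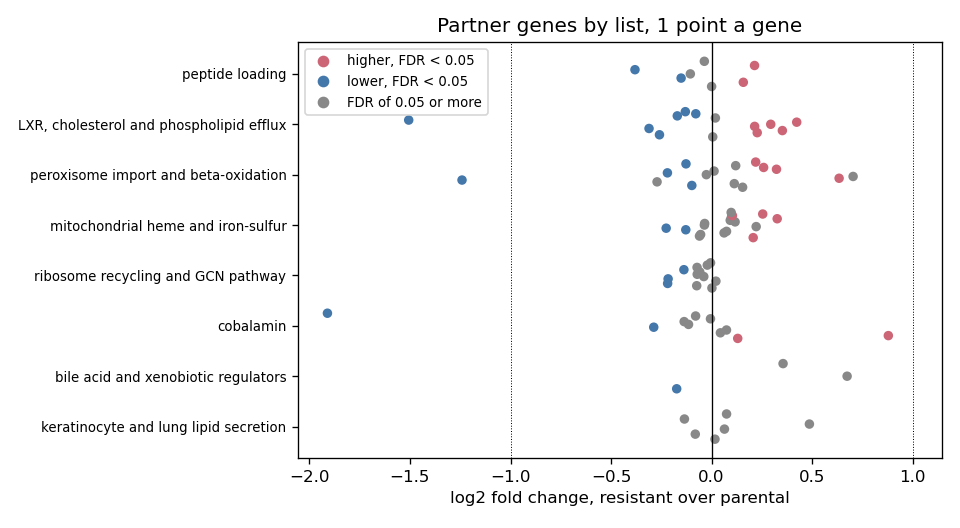
Log2 fold changes, resistant over parental, of the 83 tested partner genes in 8 lists, with 1 point a gene. Points lie on both sides of 0 in each list, and PLTP, ACSL1 and TCN2 are the only ones beyond an absolute log2 fold change of 1.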

How the data were processed

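The authors trimmed reads with fastp, mapped them to hg38 with HISAT2 2.0.5, counted them per gene with featureCounts 1.5.0-p3 and deposited the raw counts of 6 libraries in 1 table, with gene lengths in bases as another quantity. The annotation release and the strand setting are not given in the sources used here, so counts of overlapping genes and close paralogs are uncertain. The labels name mouse as the organism, but the gene identifiers and the cell line are human, and hg38 was taken as the build. Columns of per-sample values not used numbered 0.

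From the counts, genes were filtered with filterByExpr (minimum count 10), scaled with TMM and tested with edgeR 4.0.16 in R 4.3.3 (quasi-likelihood test, two-sided, Benjamini-Hochberg over 17142 genes). The standard error is the log2 fold change divided by the square root of F, and 95% intervals use the t distribution. Summed counts of untested genes were compared by an exact conditional (Clopper-Pearson) interval with scipy 1.17.1. Intervals and the floor of 3 counts cover counting error only. Single values of 3 against 3 libraries were not tested, since an exact permutation test cannot fall under 0.1 there.

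Alternatives were limma-voom (limma 3.58.1, which the authors name), DESeq2 1.42.0, limma-trend, limma on log2(FPKM + 1), other scalings, filters and prior counts, glmTreat, protein-coding genes only, the replicate number as a block, and each library left out in turn. In simulated counts of 17142 genes, 200 were given a log2 change of 2, and all 200 were recovered by edgeR beside 3 false calls. The changed genes were drawn above a count cut that the 3 called members do not reach. All genes were given the same dispersion, and recovery of smaller changes or at lower counts was not tested. Named genes are members past the FDR threshold, members of high level, members with few counts, and up to 3 genes of each partner list with the largest change past the threshold. ABCG8, the genes that did not pass and the chromosomal neighbors were named beyond this rule or after their values were seen. Members and lists were chosen with earlier results of these data known. Of the list symbols, MMUT and LORICRIN had no match in the table. Sequences were not used here. Some genes are not reported here by name, though they remain in the fits and counts.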

Additional observations from a re-analysis of the deposited data

How the results depend on the processing

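The 3 called genes had at most 29 counts in any library, and the resistant line comes from 1 selection. With limma on log2(FPKM + 1), 0 members were called higher and 0 lower, and 4 rose and 2 fell at an FDR of less than 0.05. The pseudocount shrinks such low levels by construction. With at least 10 counts in every library, 0 were called higher and 1 lower, since ABCA10 and ABCB11 were no longer tested. A prior count of 5 left 1 called lower. With glmTreat, 0 were called in either direction, 0 members rose and 0 fell, and 0 partner genes rose and 3 fell, since it tests against an absolute log2 fold change of 1. DESeq2 gave 5 that rose, and the cause was not tested. With each library omitted in turn, the members called numbered 1 higher and 2 lower throughout, those that rose 4 to 7 and those that fell 3 to 5, and partner genes that rose 13 to 17 and that fell 17 to 20. The lowest value of those that rose, 4, came without resistant replicate 1. No member that passed under any setting reversed its direction. Of the 12 members that passed, ABCA2, ABCA5, ABCB9 and ABCE1 passed in each of the 18 fits other than glmTreat. ABCA10 and ABCB11 passed in those of the 18 fits that tested them, and did not pass with glmTreat. They reached the test through 1 group only, so this is no sign of stability. With the replicate number as a block, 8 members rose, 4 fell, 1 was called higher and 2 lower. Same-numbered libraries did not deviate together (correlations −0.0196 to −0.00806), so the numbers were not read as pairs.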
